A study of Apis mellifera with 12 samples.

Results

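Bulk RNA-seq of honeybee brains held 7 genes with a stepped order across the female castes, highest in foragers, intermediate in nurses and lowest in queens: Acph-1, LOC100577377, LOC406114, LOC413560, LOC551268, LOC552366 and LOC727423. They were picked from the bulk values themselves, out of 11336 genes, after the genes of the royal jelly proteins Mrjp1 to Mrjp9 had been taken out and each library scaled to counts per 1000000 (CPM). A gene had to reach 3 CPM in both forager libraries, to be at least 1.5 times higher in the lower forager library than in any nurse or queen library, and to be in both nurse libraries at least 2 times the higher queen library. Of 48 genes past the forager part of the rule, Hbg3 and AGLU2 were left out by name, and 39 others missed the nurse part. A further name to be left out, GOX, matched no gene name of the table. Because the bulk values chose the genes, the bulk levels are a description with no test, and the 6 single-cell libraries, which the rule did not use, carried the tests.

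Brains of adult Apis mellifera females were profiled, with 2 bulk and 2 single-cell libraries for each of 3 groups. Workers of a single colony were sorted by task, into nurses (observed tending brood) and foragers (carrying pollen loads), and the mated queens were artificially reared and inseminated. No ages were given, and workers differ from queens in rearing as well as in task. Each bulk library held 5 pooled brains and each single-cell library 4 to 5, so no library is a single bee, and the p-values measure the spread between pools.

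Adult workers usually nurse larvae inside the hive when young and forage outside later, and this change of task goes with changes in the brain and in the glands of the head. The hypopharyngeal glands, which lie beside the brain, secrete royal jelly proteins in nurses and carbohydrate-processing enzymes such as the alpha-glucosidase Hbg3 in foragers. Of the 7 genes, Acph-1 was the only member with a gene name, that of an acid phosphatase known from honeybee venom. The other 6 had only identifiers in the files and in the gene table used here, and no role is given to them.

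All 7 genes were protein coding in Amel_HAv3.1, the assembly of the files, and lay on 5 linkage groups. Acph-1 spanned positions 13090287 to 13099780 of linkage group 5, and LOC727423 lay on the same group at 10833129 to 10837975, with gene starts 2257158 bp apart. LOC413560 (16676463 to 16691640) and LOC552366 (3272743 to 3274362) shared linkage group 1, with starts 13403720 bp apart. LOC100577377 lay on linkage group 2 (16026992 to 16030441), LOC551268 on group 11 (8270561 to 8283879) and LOC406114 on group 13 (9129778 to 9132956). No pair of the genes adjoined each other.

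The bulk libraries held 13135057 to 15177035 counts, of which Mrjp1 to Mrjp9 took 1.51% and 9.79% in foragers, 41.8% and 26.1% in nurses and under 0.01% in queens (0.00811% and 0.00862%). The 6 neuronal markers were all above 0 in every bulk library, with a summed level of 123 to 332 CPM. Genes listed for tissues around the brain differed between castes in their summed level. All 12 listed genes of the head glands were found, none at 0 throughout, and their sum was 31891 and 116228 CPM in foragers, 419382 and 264139 in nurses, against 1032 and 1395 in queens, of a total that kept the Mrjp genes in. The 5 fat body genes summed to 124 and 128 CPM in foragers, 168 and 1033 in nurses, with queens at 66041 and 57974. Vg alone was at 65800 and 57517 CPM in queens. By in situ hybridization the paper reports vg transcripts in ensheathing glia of queen brains, and the source of the Vg RNA was not tested here. The part of tissues around the brain in the levels of the 7 genes was not tested. In bulk more cells of a type and more RNA per cell cannot be told apart.

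Acph-1 was at 5.26 and 7.80 CPM in foragers, 2.49 and 2.26 in nurses, against 0.628 and 0.631 in queens. Its forager mean of 6.53 ± 1.80 CPM (SD, n = 2) was 2.75 times the nurse mean and 10.4 times the queen mean. It was the least abundant of the 7 in the lower forager library, and the queen level rested on 9 counts in each library. The ratio of the summed counts between foragers and queens, 164 against 18, had a 95% interval of 6.33 to 17.8 for counting error.

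LOC727423 was at 290 and 274 CPM in foragers, 181 and 158 in nurses, with queens at 60.1 and 34.2. The means were 282 ± 11.5, 169 ± 16.1 and 47.2 ± 18.3 CPM (SD, n = 2 each), 1.67 times higher in foragers than in nurses and 5.98 times higher than in queens. This was the gene nearest to the limit of 1.5, with a lower forager library 1.52 times the higher nurse library.

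LOC100577377 was at 119 and 121 CPM in foragers, 53.8 and 61.7 in nurses, against 22.1 and 24.6 in queens. The forager libraries lay 2.08 times above the nurse mean and 5.16 times above the queen mean, the smallest fold over queens of the 7. The libraries of each caste lay close together, with SDs of 1.68, 5.60 and 1.79 CPM (n = 2 each).

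LOC413560 was at 30.2 and 22.9 CPM in foragers, 8.58 and 12.8 in nurses, with queens at 3.51 and 2.13. Its mean was 2.49 times higher in foragers than in nurses and 9.42 times higher than in queens. It was also the only one of the 7 whose deposited estimates were not whole counts (391.23 and 281.38 in the forager libraries). The counting tool gives fractions for a gene where it divides reads with another gene. That other gene was not traced.

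LOC551268 was at 54.3 and 44.6 CPM in foragers, 22.4 and 28.4 in nurses, against 3.14 and 2.17 in queens. The forager mean was 1.95 times the nurse mean and 18.6 times the queen mean, so that the step from queens to nurses (9.57 times) was larger than that from nurses to foragers.

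LOC552366 was at 7.88 and 12.7 CPM in foragers, 4.98 and 3.11 in nurses, with queens at 0.210 and 0.280. The mean fold was 2.54 over nurses and 42.0 over queens. The queen libraries held 3 and 4 counts of it, and the ratio of the summed counts between foragers and queens, 41.7, had a 95% counting interval of 19.97 to 105.

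LOC406114 had the largest spread between castes, with 2776 and 2369 CPM in foragers, 272 and 493 in nurses, against 0.698 and 2.17 in queens. Its forager mean was 6.72 times the nurse mean and 1792 times the queen mean, and the nurse mean was 267 times the queen mean. The queen libraries held 10 and 31 counts, against 35912 and 29157 in foragers, and the 95% counting interval of the ratio of sums ran from 1325 to 2505.

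**Figure D1:**
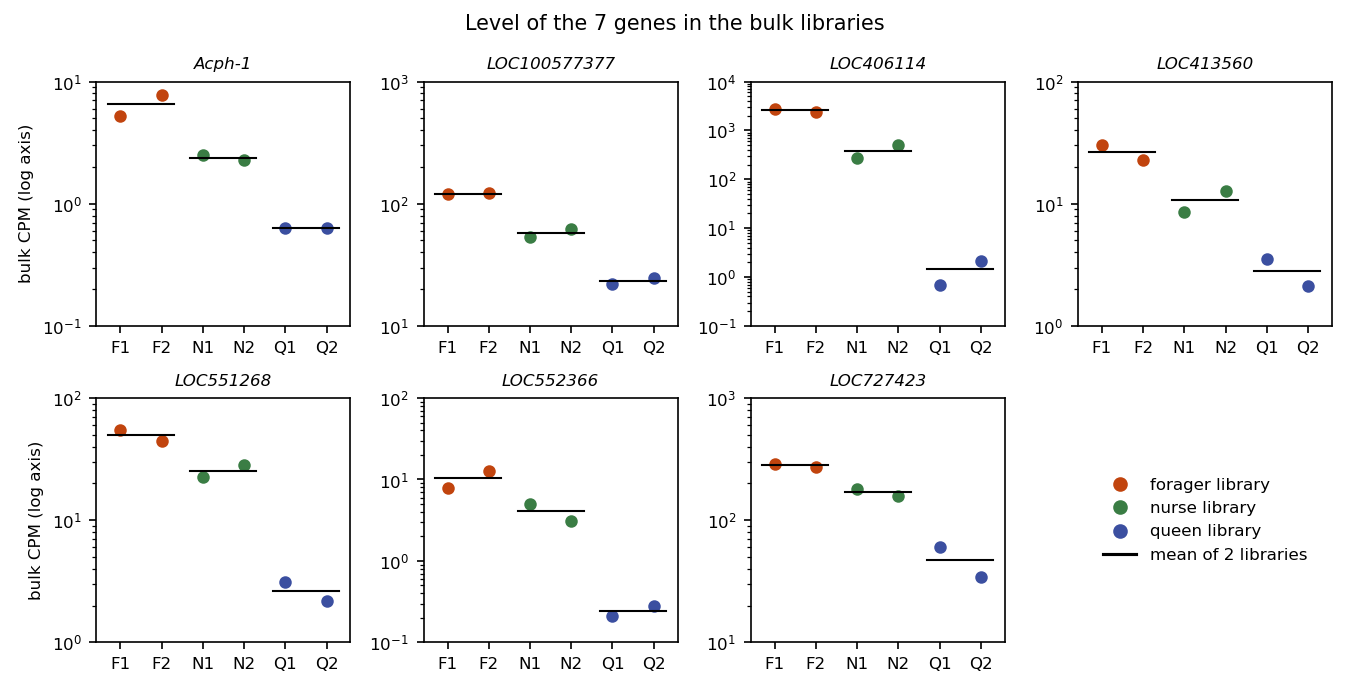
Bulk level of the 7 genes in each library, in CPM without Mrjp1 to Mrjp9, on a log axis with its own range in each panel (F forager, N nurse, Q queen; the black line is the mean of 2 libraries). In every panel the forager points lie above the nurse points and those above the queen points, which the rule required; LOC406114 spans the widest range, from 0.698 to 2776 CPM.

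Across the 7 genes the median fold was 2.49 between foragers and nurses, 3.78 between nurses and queens and 10.4 between foragers and queens. In a fit of all bulk libraries with edgeR, in which a gene was called at an adjusted p under 0.01 and a log2 fold change over 1 in size, 0.0101% of 9932 genes were called between foragers and nurses (1 gene, at an adjusted p of 0.00194, a call lost without Nurse 1), and 2.44% were called higher and 5.86% lower in foragers than in queens. The gene called between foragers and nurses was none of the 7, and all 7 were called higher than in queens, counts from which nothing is read because these contrasts chose the genes. The contrasts with nurses and with queens share the forager libraries. The median log2 fold change of the 7 was 1.32 over nurses and 3.20 over queens, beside -0.0022 and 0.01 for all genes. Nothing is read from this distance either, since the rule required high folds. Plain CPM without the TMM scaling of edgeR put the median of all genes at 0.17 (log2) between foragers and queens. The rule itself asked for a larger fold than this shift.

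Some of the 7 stood near a limit of the rule. Just inside the limit on the forager fold were LOC727423 (1.52 times), LOC551268 (1.57) and LOC552366 (1.58), and just outside were LOC410747 (1.44), Fabp (1.38) and LOC408695 (1.28). Just inside the limit on nurses over queens were LOC100577377 (2.19), LOC413560 (2.44) and LOC727423 (2.63), and just outside were LOC411223 (1.95), LOC726703 (1.76) and LOC726737 (1.68). At the minimum of 3 CPM, Acph-1 (5.26 CPM), LOC552366 (7.88) and LOC413560 (22.9) were the lowest inside and LOC102656780 (1.22), Or170 (0.928) and LOC102655756 (0.569) the nearest outside. Of the 39 genes that missed only the nurse part, 19 still had both nurse libraries above both queen libraries and 5 had both below.

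Of the genes left out by name, Hbg3 had bulk levels of the same kind and AGLU2 did not. Hbg3 met every number of the rule, at 16417 and 19608 CPM in foragers, 1966 and 3291 in nurses, with queens at 648 and 947. AGLU2, another alpha-glucosidase, met only the forager part, at 649 and 666, 319 and 412, and 299 and 359 CPM.

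Reads of 3 of the 7 genes could not be told apart with certainty from those of a gene on top of them, since the strand setting of the bulk counting is not given in the sources used here. Acph-1 was overlapped by LOC726703, which was itself at 20.9 and 10.1 CPM in foragers, 4.19 and 6.12 in nurses, against 2.37 and 2.17 in queens. The deposited counts of Acph-1 and of LOC726703 were whole in every library. On the left of Acph-1, 1131 bp away, lay LOC726737, at 415 and 489 CPM in foragers, 14.0 and 17.2 in nurses, with queens at 5.38 and 8.34. This neighbour was the single gene called in bulk between foragers and nurses, with a log2 fold change of 4.88 (SE 0.26), and it missed the rule through Nurse 1, at 1.68 times the higher queen library. Without Nurse 1 that call was lost.

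LOC100577377 was overlapped by LOC551687, at 311 and 385 CPM in foragers, 167 and 235 in nurses, against 145 and 139 in queens. LOC413560 was overlapped by LOC409970, which was at 31.5 and 22.6 CPM in foragers, 59.2 and 42.8 in nurses, with queens at 18.7 and 15.4. The order of castes at LOC409970 was therefore another than that at LOC413560, with the nurses highest. The part of the overlapping genes in the levels of the 7 was not tested.

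The question for the single-cell libraries was whether the same stepped order appeared in dissociated brain cells. UMIs (molecule counts) were summed per library over 115169 kept cells, 16761 to 20988 per library, with 110046794 to 145180530 UMIs each. Of these cells, 3109 (2.7%) had a barcode that also occurred in another library. In these sums the head gland list was at 87.5 and 159 CPM in foragers, 160 and 220 in nurses, with queens at 29.8 and 40.1, and the fat body list was at 6.47 to 15.4 CPM in workers and 85.3 and 29.9 in queens; their part in the values was not tested. By the plain order of the library values, the steps were there for LOC727423 and LOC100577377 and not for the other 5. For LOC100577377 the step between workers was slight, with Forager 1 at 0.704 and Nurse 2 at 0.699 CPM. Neither gene was called by edgeR between foragers and nurses or between nurses and queens. For LOC413560, LOC551268 and LOC552366 the forager libraries lay below the queen libraries. Of the 7, 4 had both forager libraries above both nurse libraries, beside 27.5% of 8518 genes with a mean of at least 3 CPM in forager bulk. In 2 of the 7 both forager libraries were above all others, beside 16.0%, and in 3 both were below both queen libraries, beside 28.2%.

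LOC727423 was the abundant one, with 25186 to 41747 UMIs per library. Its level was 363 and 328 UMIs per 1000000 (CPM) in foragers, 253 and 275 in nurses, against 173 and 209 in queens. No library of a caste reached into the range of another. Between foragers and queens edgeR gave a log2 fold change of 0.80 (SE 0.10, adjusted p = 0.00277), past the threshold used for the cell sums of an adjusted p under 0.01 and a log2 fold change over 0.5 in size. Between foragers and nurses it gave 0.42 (SE 0.10, adjusted p = 0.0758) and between nurses and queens 0.38 (SE 0.10, adjusted p = 0.0248), neither a call. Over 14 alternatives the log2 fold change between foragers and nurses stayed at 0.36 to 0.49. This is under the limit of 0.5, so under that limit it could not be called at any adjusted p. The call against queens was lost without Forager 1 (0.74), without Forager 2 (0.86) or without Queen 1 (0.68), fits in which the lone library was assumed to vary like those of the other castes; over its 14 alternatives the adjusted p ran from 2.96e-10 to 0.0170 and 11 made the call.

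LOC100577377 had 30 to 89 UMIs per library, and no cell held more than 2. It was at 0.704 and 0.773 CPM in foragers, 0.536 and 0.699 in nurses, with queens at 0.220 and 0.244. Both worker castes lay above the queens, while Forager 1 and Nurse 2 were nearly level. In edgeR the log2 fold change was 1.61 (SE 0.31, adjusted p = 0.00849) between foragers and queens, a call, 1.32 (SE 0.31, adjusted p = 0.0169) between nurses and queens and 0.29 (SE 0.29, adjusted p = 0.573) between foragers and nurses. The call was lost when any single library was left out, at log2 fold changes of 1.53 to 1.70. Over 14 alternatives the adjusted p ran from 0.00368 to 0.0568, and 6 made the call. In the cells the 10 glial markers moved with caste too, with a sum of 809 and 1188 CPM in foragers, 946 and 1149 in nurses, against 610 and 561 in queens. There 4 of them were called higher in foragers than in queens. In bulk their sum was highest in queens, at 30663 and 31804 CPM, against 20389 and 19930 in foragers and 9542 and 12462 in nurses. Those bulk totals kept the Mrjp genes in. In cells poor in Kenyon, glial and hemocyte markers the log2 fold change of LOC100577377 between foragers and queens was 1.58. In those same cells 5 of the 10 glial markers were still called higher in foragers and 0 lower, where 5.90% of genes were called higher. Their median log2 fold change there was 0.97. The part of glial RNA in the values of LOC100577377 was not tested. The overlapping LOC551687 had the same order in the cells as LOC100577377. It was at 38.3 and 39.8 CPM in foragers, 32.6 and 29.2 in nurses, with queens at 22.6 and 27.8. The part of LOC551687 in the values of LOC100577377 was not tested.

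LOC413560 had opposite orders in bulk and in the cells. Its level was 2.97 and 2.62 CPM in foragers, 3.93 and 3.57 in nurses, against 10.99 and 5.51 in queens, on 302 to 1596 UMIs. The queens were highest and the foragers lowest, and the queen libraries differed from each other beyond their counting intervals (10.5 to 11.5 and 5.11 to 5.95 CPM). The log2 fold change between foragers and queens was -1.62 (SE 0.33), and the edgeR adjusted p of 0.0101 just missed the limit. Without Queen 2 it was called lower (-2.04), and without Queen 1 it was -1.03 and not called. Over 14 alternatives the adjusted p ran from 1.94e-05 to 0.0555, and 5 made the call, DESeq2 among them. The overlapping LOC409970 did not share this order in the cells, at 62.0 and 68.8 CPM in foragers, 51.7 and 46.9 in nurses, with queens at 34.9 and 48.3.

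LOC551268 was the scarcest in the cells, with 9 to 52 UMIs per library. It was at 0.122 and 0.156 CPM in foragers, 0.0818 and 0.150 in nurses, against 0.358 and 0.252 in queens. The queens were highest and the worker castes overlapped. The edgeR log2 fold change was -1.19 (SE 0.43, adjusted p = 0.0665) between foragers and queens and -1.48 (SE 0.44, adjusted p = 0.0369) between nurses and queens, neither past the threshold.

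LOC552366 was at 0.608 and 0.591 CPM in foragers, 0.427 and 0.310 in nurses, with queens at 0.627 and 0.643. Foragers and queens lay within the 95% counting intervals of each other, and both nurse libraries were lower. The edgeR log2 fold change was 0.73 (SE 0.31, adjusted p = 0.208) between foragers and nurses and -0.14 (SE 0.30, adjusted p = 0.746) between foragers and queens, whereas the bulk means had differed 42.0-fold.

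LOC406114, with the highest bulk level of the 7, was at 0.730 and 0.938 CPM in forager cells, 0.409 and 0.487 in nurse cells and 1.16 and 0.424 in queen cells. The queen libraries lay on either side of the foragers. The edgeR log2 fold change was 0.93 (SE 0.48, adjusted p = 0.278) between foragers and nurses and 0.01 (SE 0.47, adjusted p = 0.987) between foragers and queens. The sign of the latter depended on 1 library: it was -0.19 without Forager 2 and -0.54 without Queen 2.

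Acph-1 was at 0.443 and 0.756 CPM in foragers, 0.854 and 0.814 in nurses, against 0.544 and 0.407 in queens, on 50 to 94 UMIs per library. The nurse libraries were highest and the foragers overlapped the queens. Neither its log2 fold change of -0.44 (SE 0.36, adjusted p = 0.484) between foragers and nurses nor that of 0.28 (SE 0.36, adjusted p = 0.574) between foragers and queens passed the edgeR threshold.

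**Figure D2:**
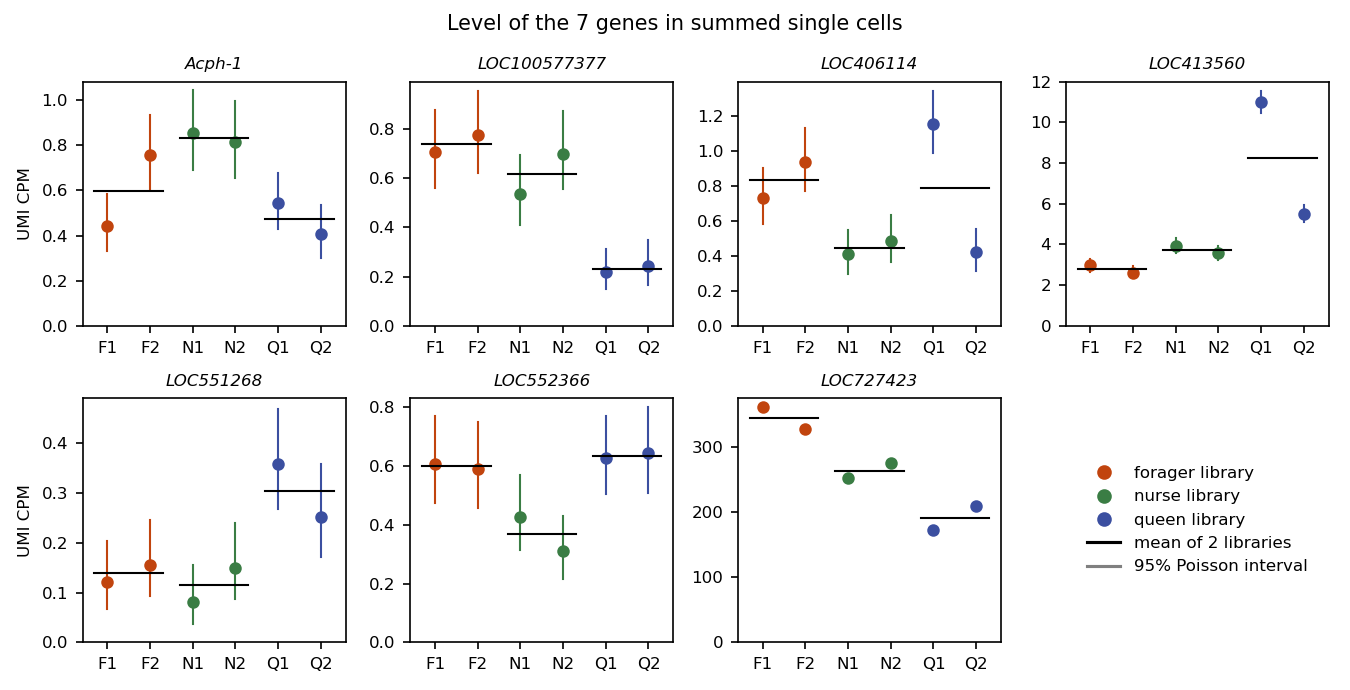
Level of the 7 genes in the summed cells of each single-cell library, in UMIs per 1000000 (CPM), with 95% Poisson intervals that cover counting error only (F forager, N nurse, Q queen; the black line is the mean of 2 libraries; each panel has its own linear axis from 0). LOC727423 steps down from foragers (363 and 328 CPM) to queens (173 and 209), whereas LOC413560 is highest in queens (10.99 and 5.51).

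Counted over the list, edgeR called 0 of the 7 between foragers and nurses, where 0.0807% of 11158 genes were called, and DESeq2 also called 0. At an unadjusted p under 0.05 there was 1 (LOC727423) of the 7, beside 2684 of the 11158 genes. Between foragers and queens edgeR called 2 of the 7 higher and none lower, where 5.02% of genes were called higher and 6.87% lower. DESeq2 called 2 of the 7 higher and 1 lower, beside 996 and 1223 of the 11158 genes. Between nurses and queens edgeR called 0 of the 7 where 12.1% of genes were called. At an unadjusted p under 0.05 there were 5 of the 7, 2 of them higher in nurses, beside 5162 of the 11158 genes. DESeq2 called none of the 7 higher in nurses and 1 lower, beside 1143 and 1060 of the 11158 genes. The median log2 fold change of the 7 was 0.29 between foragers and nurses and 0.01 between foragers and queens, beside 1.32 and 3.20 in bulk, where the genes were chosen.

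**Figure D3:**
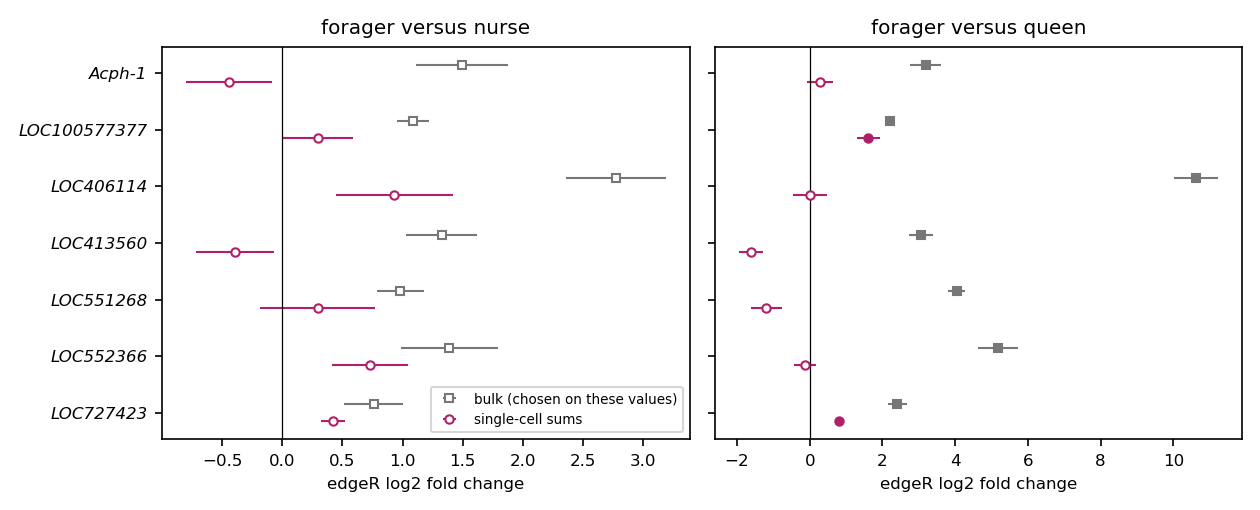
edgeR log2 fold changes (points) with their standard errors (bars) of the 7 genes in bulk (grey squares, the values that chose the genes) and in single-cell sums (pink circles), for foragers against nurses on the left and against queens on the right; filled symbols passed the threshold. Only LOC100577377 (1.61) and LOC727423 (0.80) have filled circles, and the circles lie on the other side of 0 from the bulk squares for Acph-1 (-0.44) and LOC413560 (-0.39) against nurses and for LOC413560 (-1.62), LOC551268 (-1.19) and LOC552366 (-0.14) against queens.

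Over all genes the direction between foragers and queens could also be set side by side. Of 235 genes called higher in forager bulk and tested in the cells, 56 (23.8%) were called higher in forager cells and 7 (2.98%) lower, beside 5.47% and 6.32% of all 9759 genes tested in both. Of the 7 genes, 2 were called higher and none lower. The neighbour LOC726737, at a forager mean of 452 CPM in bulk, had 16 and 15 UMIs in the forager cells, 4 and 6 in the nurse cells and 8 and 7 in the queen cells.

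In foragers 6 of the 7 genes had a higher CPM in bulk than in the cells, and LOC727423 a lower one. There the bulk CPM divided by the cell CPM was 3085 for LOC406114, 356 for LOC551268, 163 for LOC100577377, 17.2 for LOC552366, 10.9 for Acph-1, 9.49 for LOC413560 and 0.817 for LOC727423. The median of 8507 genes was 1.09 and the 90th percentile 6.55, so that 6 of the 7 lay above the latter and 2 above the 99th percentile of 198. Bulk reads scale with transcript length and UMIs do not, and the forager bulk level was one of the values that chose the genes, so this place among all genes is a description. Among the genes that missed the nurse part of the rule, 21 of 38 were above the 90th percentile, with a median of 9.40 beside 17.2 for the 7.

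The ratio was lower in queens than in foragers for all 7 genes, and likewise for Hbg3, at 541 in foragers, 103 in nurses and 50.1 in queens. For LOC406114 it was 855 in nurses and 1.82 in queens, and for LOC551268 219 and 8.70. In queens LOC413560 (0.342), LOC552366 (0.386) and LOC727423 (0.247) were lower in bulk than in the cells, while LOC100577377 stayed at 100. Since the bulk levels chose the genes, a larger ratio in foragers is partly fixed by the rule, and no test was made of it.

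**Figure D4:**
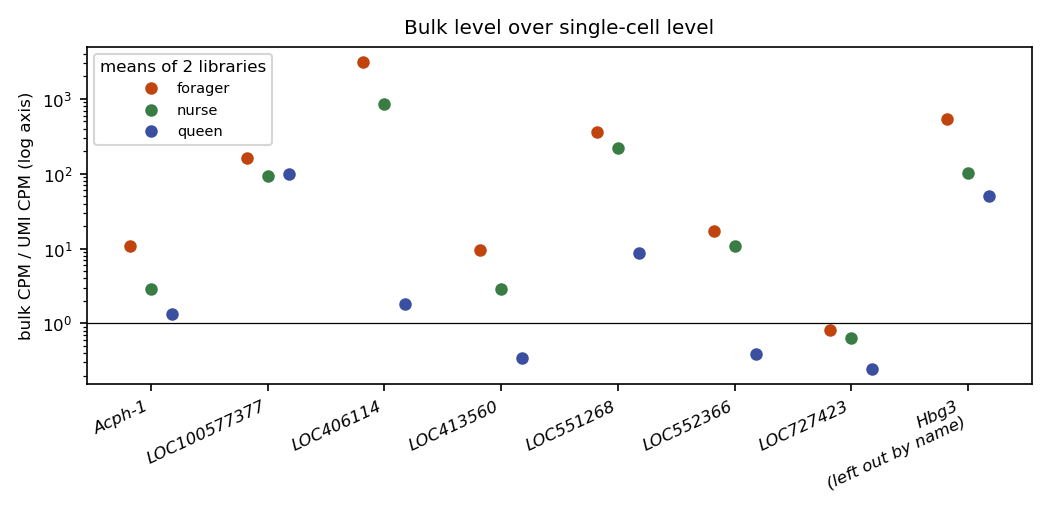
Mean bulk CPM divided by mean cell CPM of each caste (2 libraries each; log axis; the line marks equal levels) for the 7 genes and for Hbg3, which the rule left out by name. LOC406114 falls from 3085 in foragers to 1.82 in queens, and LOC727423 lies below 1 in all 3 castes.

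To see in which cells the UMIs lay, cells were grouped by their share of marker UMIs. Cells with at least 30 UMIs of 10 glial markers (repo, ebony, GlnS and others) per 10000 were taken as rich in glial markers. Glia are the support cells of the nervous system, which insulate and feed neurons. There were 6263 such cells, 3.35% to 8.08% of a library, and 108788 were poor in markers of glia and of hemocytes, the blood cells. The limit was set after the data were seen and divides a range, with 7604 cells between 20 and 40, and the rich cells were shallower (a median of 2302 to 3363 UMIs against 4668 to 5879 in the poor cells).

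Acph-1 and LOC100577377 were concentrated in the cells rich in glial markers. Acph-1 was at 1.93 and 2.20 CPM there in foragers, 4.35 and 2.57 in nurses, with queens at 2.46 and 2.69, against 0.351 to 0.705 in the poor cells, on 6 to 20 UMIs per library in the rich cells. LOC100577377 was at 3.21 and 2.57 CPM in foragers, 1.52 and 3.02 in nurses, against 1.09 and 0.672 in queens, against 0.198 to 0.675. Both were higher in the rich cells of 6 of 6 libraries, and 15.9% of the UMIs of Acph-1 (72 of 453) and 15.4% of those of LOC100577377 (57 of 370) lay there.

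Against all other cells, with library as a block, edgeR gave log2 fold changes of 2.24 for Acph-1 (SE 0.25, adjusted p = 7.90e-05) and 2.07 for LOC100577377 (SE 0.25, adjusted p = 0.000129), both calls that held in all 9 alternatives. LOC727423 was also higher in 6 of 6 libraries, but by a log2 fold change of only 0.26 (SE 0.06, adjusted p = 0.00547), under the limit on the fold. Of the 6 genes tested, Acph-1 and LOC100577377 were thus the 2 called higher, where 15.2% of 10680 genes were called higher. LOC551268, with 5 UMIs in the rich cells, was too scarce to test, and LOC406114 (0.71, adjusted p = 0.163), LOC552366 (-0.09) and LOC413560 (-0.16) were not called.

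**Figure D5:**
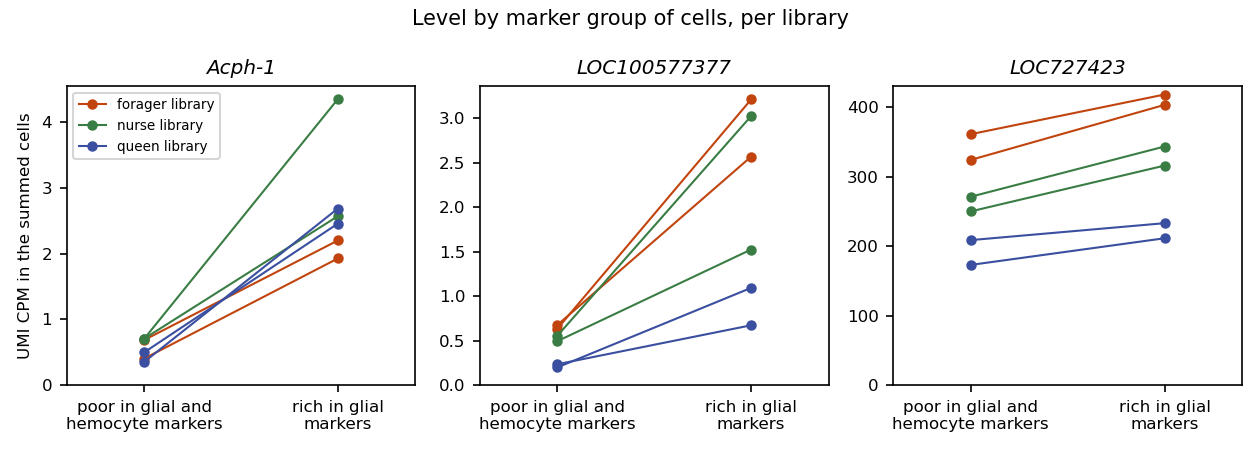
Level of Acph-1, LOC100577377 and LOC727423 in cells poor in glial and hemocyte markers and in cells rich in glial markers, in UMIs per 1000000 of the summed cells; each line joins the values of 1 library. Every line rises, from at most 0.705 to at least 1.93 CPM for Acph-1, with a small step for LOC727423.

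Head gland genes were also more frequent in the cells rich in glial markers, where 7 of the 10 tested were called higher. The part of gland RNA in the values of Acph-1 and LOC100577377 was not tested. In the 304 cells with at least 20 UMIs of gland markers per 10000, Acph-1 had 14 UMIs (7.47 CPM, beside 2.72 in all cells rich in glial markers) and LOC100577377 had 1 (0.534 CPM). The 16 cells with at least 100 per 10000 held 1721 of the 17606 UMIs of Hbg3 and none of either gene, but their 117522 UMIs in all were too few to show genes at these levels.

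Within the rich cells most UMIs of Acph-1 and of LOC100577377 lay under different pairs of markers. In cells led by Tret1, a trehalose carrier, and vkg, named after a basement membrane collagen of Drosophila, Acph-1 had 48 UMIs (4.40 CPM) and LOC100577377 had 11 (1.01 CPM). In cells led by ebony and GlnS, enzymes that act on transmitters in the glia of Drosophila, Acph-1 had 6 UMIs (0.667 CPM) and LOC100577377 had 30 (3.34 CPM). Cells led by ebony and GlnS were 2.09% and 1.81% of forager, 2.53% and 4.27% of nurse and 0.384% and 0.704% of queen cells. In cells led by Idgf4 and Tsf1, the paper's markers of ensheathing glia, Acph-1 had 11 UMIs (2.20 CPM) and LOC100577377 had 8 (1.60 CPM). In the 107 cells led by wrapper and zyd, Acph-1 had 5 UMIs (9.93 CPM) and LOC100577377 had 2 (3.97 CPM), too few to order. The gland gene Hbg3 was at 226 CPM under Tret1 and vkg, 170 under Idgf4 and Tsf1, 44.2 under ebony and GlnS and 33.8 under wrapper and zyd. The part of gland RNA in these differences was not tested. The UMI counts and CPM were pooled over libraries, and none of these values was tested.

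The 16 gland-rich cells, with 117522 of the 721264754 UMIs of all cells, held UMIs of 3 of the 7 genes. For LOC406114 it was 18 of 512 UMIs, and 17 of these came from Forager 1, 20.2% of the 84 UMIs of that library (95% exact binomial interval 12.3% to 30.4%). LOC551268 had 1 UMI there, LOC727423 had 34 of 189270, and the others had none. The level of LOC727423 was 289 CPM in these cells and 262 CPM in all the rest, a near match. That of LOC406114 was 153 CPM in these cells and 0.685 CPM in the rest. Without these cells the log2 fold change of LOC406114 between foragers and queens went from 0.01 to -0.12, and in neither case was it called.

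Caste differences were then compared within the groups of cells. Between foragers and nurses edgeR called 0 of the 4 genes tested in cells rich in glial markers, where 0.0328% of genes were called, with none at an unadjusted p under 0.05 and none called by DESeq2. Acph-1 gave a log2 fold change of -0.71 (SE 0.47, adjusted p = 0.572) there, LOC100577377 0.25 (SE 0.49, adjusted p = 0.889) and LOC727423 0.29 (SE 0.14, adjusted p = 0.409). In cells poor in glial and hemocyte markers edgeR called 0 of the 7, where 0.0810% of genes were called, with 1 (LOC727423) at an unadjusted p under 0.05 and none called by DESeq2. LOC727423 had a log2 fold change of 0.43 (SE 0.10, adjusted p = 0.0649) there.

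Kenyon cells are the intrinsic neurons of the mushroom bodies, the centres of learning and memory in the insect brain. Here 33959 cells were rich in 6 of their markers (at least 150 per 10000, with 11253 cells between 120 and 180). Between foragers and queens edgeR called 1 of the 7 higher in these cells, where 5.69% of genes were called higher. This was LOC727423, at a log2 fold change of 0.63 (SE 0.11, adjusted p = 0.00561), a call that was lost when any single library was left out, at 0.51 to 0.73. LOC413560 was at -1.69 (SE 0.52, adjusted p = 0.0406) there and LOC100577377 at 1.42 (SE 0.40, adjusted p = 0.0304). The size of the value of LOC413560 depended on Queen 1 (12.3 CPM, against 3.50 in Queen 2): it was -0.51 without Queen 1 and -2.33, a call, without Queen 2.

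In the 74829 cells poor in Kenyon, glial and hemocyte markers, edgeR called 1 of the 7 higher and 1 lower in foragers than in queens, where 5.90% of genes were called higher and 8.53% lower. LOC727423 was higher (log2 fold change 0.84, SE 0.14, adjusted p = 0.00359) and LOC413560 lower (-1.60, SE 0.24, adjusted p = 0.00248). Both calls were lost without Forager 1 (0.70 and -1.63), Forager 2 (0.97 and -1.56) or Queen 1 (0.65 and -1.28). LOC100577377 had 1.58 (SE 0.35, adjusted p = 0.0104), just outside the limit.

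Among the gene lists set beside the 7, head gland genes were the list with the most bulk calls higher in foragers than in queens, 7 of 12, among them Mrjp1 (log2 fold change 13.25, SE 1.74, adjusted p = 0.00243) and Mrjp5 (11.53, SE 0.94, adjusted p = 0.000329). The median log2 fold change of that list was 6.28, beside 0.01 for all genes. The list as a whole did not share the order of the 7 between foragers and nurses, where its bulk median was -2.09. Of its 12 genes, 9 were Mrjp1 to Mrjp9, which the rule had taken out. Hbg3 and AGLU2 of this list went the other way, with bulk forager means 6.85 and 1.80 times the nurse means. In the cell sums 4 of the 11 tested genes of the list, Mrjp1 to Mrjp4, were called lower in foragers than in nurses.

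Of 4 sugar enzymes and carriers, Hbg3 was called higher in forager than in queen bulk (log2 fold change 4.34, SE 0.42, adjusted p = 0.000622) and Tret1 lower (-1.52, SE 0.23, adjusted p = 0.00445), by edgeR. Of 17 odorant binding and chemosensory genes tested, 3 were called higher, Obp21 among them (3.14, SE 0.45), and 3 lower, led by Obp14 (-8.94, SE 0.78) and Obp3 (-6.43, SE 0.72). Of 4 genes of juvenile hormone, insulin and foraging, Jhe, the esterase that degrades juvenile hormone (-5.56, SE 0.48), and ILP-2, an insulin-like peptide (-1.56, SE 0.25), were called lower and none higher. Of the 5 fat body genes, Vg (-10.06, SE 1.15) and Hex70a (-4.62, SE 0.76) were called lower. The single bulk call between foragers and nurses, LOC726737, belonged to none of these lists.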

How the data were processed

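Brains of queens, nurses and foragers gave 6 bulk and 6 single-cell libraries. For bulk, the authors trimmed reads (Trimmomatic 0.39), aligned them with STAR and deposited RSEM expected counts per gene, not scaled for library size; these were rounded for the tests. For single cells, the authors ran Cell Ranger 3.1.0 on Amel_HAv3.1 and deposited UMI counts per gene and barcode. Cells were kept at 200 to 5000 genes and at least 500 UMIs, with no UMI total above 1.5 interquartile ranges over the upper quartile of a caste. The share of UMIs from the 450 features named with the prefix MT-, taken as the mitochondrial share, had to be under 15%. Doublets were kept and no caller was run. Cells were grouped by marker share since no annotation of cells was used here.

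Sums per library were fitted with edgeR 4.0.16 (quasi-likelihood F test, TMM, filterByExpr, 3 castes in 1 fit, two-sided, Benjamini-Hochberg over all genes tested), with DESeq2 1.42.0 as an alternative, in R 4.3.3. Alternatives were the filter, the barcodes, the limits, the marker groups, a replicate block and leaving out each library. Scripts were tested on simulated data. Counting intervals cover counting error only, at 95%; bulk reads carry no molecular identifiers. Each of the 7 genes was named, as were the 3 genes nearest each side of a limit, those left out by name, their neighbours (chosen after their values were seen) and up to 4 called genes of a list. The genes and lists were chosen with earlier results of these data known.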

Additional observations from a re-analysis of the deposited data

Results flagged for a closer look

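Barcodes that the cell filters removed also held UMIs of the 7 genes, outside the sums that were compared: 88852 of LOC727423, 2184 of LOC413560, 411 of Acph-1, 295 of LOC552366, 248 of LOC406114, 185 of LOC100577377 and 40 of LOC551268. For LOC727423 the level in these barcodes was 260 and 250 CPM in foragers, 184 and 238 in nurses, with queens at 107 and 116. For LOC413560 it was 3.12 and 2.58, 2.80 and 2.80, and 8.58 and 5.91 CPM.

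Foragers and queens lay in opposite orders in the bulk and the single-cell libraries for 3 genes, a difference between the kinds of library that was not tested. Every forager library was above every queen library in bulk, where the genes were chosen, and below it in the cells. The log2 fold change between foragers and queens in the single-cell sums was -1.62 for LOC413560, -1.19 for LOC551268 and -0.14 for LOC552366.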

How the results depend on the processing

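The set of 7 genes moved with the limits: it had 2 genes at a fold of 2 (Acph-1 and LOC406114), 46 without the nurse part, 6 with TMM scaling (LOC100577377 left) and 10 with the Mrjp genes in the totals (4 shared), and 9 to 22 without 1 library, 22 without Nurse 1. In the single-cell sums the count called between foragers and queens (2) was 0 to 2 without 1 library, and that between nurses and queens (0) was 1 with DESeq2, 1 over all barcodes, 3 at an adjusted p under 0.05 and 0 to 1 without 1 library (1 without Queen 2). In bulk, 1 gene was called between foragers and nurses, 98 with DESeq2, 10 with no filter on low counts and 1 to 6 without 1 library (6 without Nurse 2; without Nurse 1 the single call was lower in foragers, so that of LOC726737 was lost). Between foragers and queens 824 were called, 331 to 870 without 1 library, 331 without Forager 1, 334 without Forager 2 and 382 without Queen 2. In Kenyon-rich cells the count (1) was 2 with DESeq2 and 0 to 1 without 1 library. In cells poor in Kenyon, glial and hemocyte markers the count (2) was 0 to 2 without 1 library. Both of these comparisons, and leaving out gland-rich cells, were added after seeing the data. The 2 main calls between foragers and queens in the single-cell sums were both higher. Over all barcodes 1 was higher and 1 lower, beside 425 and 702 of 11335 genes. With no filter on low counts 2 were higher and 1 lower, beside 584 and 779 of 11747 genes. At an adjusted p under 0.05 it was 2 and 1, beside 1081 and 1523 of 11158 genes. The lower gene was LOC413560 each time.

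A block for the replicate number reduced the calls between foragers and queens from 2 to 1 (LOC100577377 lost). The numbers did not pair the libraries: the correlations of their deviations were -0.18 to 0.03 in the cells and -0.10 to 0.02 in bulk.

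Signs turned for values that were not called. Between foragers and queens LOC406114 was -0.28 over all barcodes, -0.12 without gland-rich cells and -0.54 to 0.93 without 1 library (-0.54 without Queen 2, -0.19 without Forager 2), and Acph-1 was -0.17 (without Forager 2) to 0.63. Between foragers and nurses LOC551268 was -0.049 (without Nurse 1) to 0.76 without 1 library, and LOC100577377 in glial-rich cells -0.080 (without Nurse 1) to 0.85. In glial-rich against other cells LOC552366 was -0.35 to 0.032 without 1 library (0.032 without Nurse 1, 0.027 without Forager 1), and LOC413560 was 0.023 without Idgf4 and Tsf1 as markers. The causes were not tested. The other values reported kept their direction. The scarce genes, LOC551268 with 9 to 52 UMIs per library above all, are limited by depth.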
